A study of Mus musculus with 18 samples.

Results

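RNA from the pylorus of mouse embryos was compared with RNA from the adjoining duodenum at the embryonic age E14.5. The comparison used every array titled as pylorus or duodenum of that age, 6 of the 18 arrays of the series. The 3 pyloric arrays counted as 3 samples. Duodenal arrays 1 and 2 lay unusually close together: the SD of their difference was 0.08, and it ran from 0.166 to 0.486 in the 17 remaining replicate pairs. They were averaged into 1 sample. The duodenum therefore had n = 2, and 5 of the 17 samples of the series entered the comparison.

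All groups came from C57Bl/6J embryos, and the labels name no mutant allele, treatment or agent. The groups were neighbouring segments of antral stomach, pylorus and duodenum at E14.5 and at E16.5, cut from whole tissue with all its cell types. At E14.5 174 embryos were used and at E16.5 95, and the tissue of each kind was divided at random among 3 pools. A p-value here weighs a difference against the spread between pools, not between embryos, and the small number of arrays limits its precision.

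The pylorus is the narrow outlet of the stomach, where a ring of smooth muscle holds food back from the duodenum. Its mesenchyme expresses homeobox and GATA transcription factors that direct formation of the sphincter and instruct the overlying epithelium to become gastric or intestinal. In this period neural crest cells have colonised the gut wall and are forming the enteric nervous system, and the duodenal epithelium begins to build villi.

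Values are log2 intensities, and each of 18193 genes was read from 1 probe set. A difference is the log2 level in pylorus minus that in duodenum, given ± SE from limma. A gene with an adjusted limma p under 0.05 over all 18193 genes counted as called. At an unadjusted limma p under 0.05, 1374 of the 18193 genes passed in either direction with all samples. Counts of list genes at that threshold are to be read beside this share. Calls and differences at E14.5 are mostly also given without pyloric replicate 1, a pool that stood apart from the other pyloric pools. Counts of called list genes are likewise to be read beside the shares of all genes called. With all samples these were 0.280% higher and 0.566% lower, and without pyloric replicate 1 they were 1.44% and 0.868%. Changes with age of single genes and of lists are given with all samples only.

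At E14.5 the genes called higher in the pylorus included 6 of 27 regulators of stomach and sphincter mesenchyme, such as Gata3, Barx1, Six2 and Nkx2-5, and 4 of 30 gastric epithelial genes. The genes called lower included 13 of 33 genes of enteric neurons, the R-spondin genes Rspo1, Rspo2 and Rspo3 and the epithelial ligand gene Shh. Many calls in both directions were fragile. Rspo2 and Shh lost theirs when any 1 pyloric pool was left out. Without pyloric replicate 3, Rspo1 and Rspo3 lost theirs too, and 6 neuronal genes were called lower. In that fit 0 gastric genes and 5 mesenchymal regulators were called higher. There 17 of the 51 higher genes and 47 of the 103 lower genes kept their call. Of 18193 genes, 154 were called (0.846%), 51 of them higher (0.280%) and 103 lower (0.566%). The rises were larger than the falls: 43 of the 51 higher genes and 38 of the 103 lower genes differed at least 2-fold. Without pyloric replicate 1 these were 149 of 262 higher and 50 of 158 lower genes. The median difference was 1.79 among the genes called higher, -0.89 among those called lower and -0.05 over all genes.

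The pools of every called gene did not overlap between the tissues, but this was common. Pools did not overlap in 1078 genes with a higher pylorus (5.93%) and in 3271 genes with a lower pylorus (18%). A division of 5 samples into 3 and 2 has 10 forms, so an exact permutation test of a single gene cannot give a one-sided p below 0.1.

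Pyloric replicate 1 lay nearest to the duodenum among the pyloric pools for 50 of the 51 genes called higher. Without it 420 genes were called (2.31%), 262 higher (1.44%) and 158 lower (0.868%). All 51 higher genes and 91 of the 103 lower genes kept their call without it. The share of calls that were higher was 33.1% in the full comparison and 62.4% without this pool. It was 47.0% under quantile normalization and 45.0% when array medians were set equal, so the excess of lower genes depended on both the pool and the scaling.

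Leaving out other samples lowered the number of calls. It was 102 without pyloric replicate 2, 65 without pyloric replicate 3, 68 without the averaged duodenal sample and 14 without duodenal replicate 3. When a duodenal sample was left out, the remaining one was assumed to vary like the other groups. When only the 5 samples of the comparison were fitted, limma called 0 genes, with 1327 at an unadjusted p under 0.05 against 1374 in the full fit.

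Across these 5 ways of leaving out a sample, 12 of the 154 genes kept their call each time. The 5 higher ones were Gata3, Barx1, Six2, Nkx2-5 and Runx1, all of them transcription factor genes. The 7 lower ones were Cbln2, Crp, Slitrk4, Tnr, Greb1, Cadps and the predicted gene Gm16551. Every other call was lost at least once.

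Of the 5 higher genes, 4 belong to the list of regulators of stomach and sphincter mesenchyme, and their upstream sequences are shown because their calls did not depend on any single sample. Each run holds the 250 bases before the annotated start of the gene, read 5′ to 3′ on the strand of the gene, from RefSeq on assembly GRCm38.p6. Capitals mark AGATAA, a site type bound by GATA factors, or its reverse complement TTATCT. The runs lie at chr2:9878601-9878850 on the minus strand for Gata3, at chr13:48662786-48663035 on the plus strand for Barx1, at chr17:85688255-85688504 on the minus strand for Six2, and at chr17:26841566-26841815 on the minus strand for Nkx2-5.
Gata3: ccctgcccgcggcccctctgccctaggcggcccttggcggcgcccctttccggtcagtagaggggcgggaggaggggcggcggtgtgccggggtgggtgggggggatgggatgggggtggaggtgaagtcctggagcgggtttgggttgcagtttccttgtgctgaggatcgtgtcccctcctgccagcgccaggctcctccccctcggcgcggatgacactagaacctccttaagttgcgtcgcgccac
Barx1: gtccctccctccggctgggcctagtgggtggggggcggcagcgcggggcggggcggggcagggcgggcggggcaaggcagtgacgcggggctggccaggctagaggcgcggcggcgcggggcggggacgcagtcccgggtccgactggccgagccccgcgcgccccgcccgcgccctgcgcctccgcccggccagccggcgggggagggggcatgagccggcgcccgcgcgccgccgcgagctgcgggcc
Six2: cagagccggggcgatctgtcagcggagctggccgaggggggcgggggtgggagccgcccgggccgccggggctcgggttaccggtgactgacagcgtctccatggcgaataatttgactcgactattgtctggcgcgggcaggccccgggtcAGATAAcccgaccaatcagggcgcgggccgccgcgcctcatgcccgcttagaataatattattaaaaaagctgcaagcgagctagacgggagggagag
Nkx2-5: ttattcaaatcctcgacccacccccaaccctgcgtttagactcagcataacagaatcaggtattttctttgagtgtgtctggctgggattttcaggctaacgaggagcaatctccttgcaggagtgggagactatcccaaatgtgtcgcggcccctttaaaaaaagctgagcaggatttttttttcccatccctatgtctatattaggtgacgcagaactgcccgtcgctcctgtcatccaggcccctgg

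Of these sequences Six2 held 1 match, which began at position -98 relative to the start, and the other 3 held none. Among the genes called higher, 39 of 51 had an upstream sequence in the table and 4 of these held a match (10.3%). Among those called lower, 74 of 103 had one and 6 held a match (8.11%). Over all 27025 genes of the table the share was 10.3%. These shares describe letters in this window and nothing about binding.

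The mesenchymal regulators stood out by the size of their differences. Of 27 measured genes of this list, 6 were called higher and 0 lower in the pylorus, against 0.280% and 0.566% of all genes. The 6 were Gata3, Barx1, Six2, Nkx2-5, Isl1 and Bmpr1b. The other 21 genes lay between -0.97 and 0.92, so the list's median was only -0.06, and at an unadjusted p under 0.05 it held 8 higher and 5 lower genes. Without pyloric replicate 1, 8 were called higher and 1 lower, against 1.44% and 0.868% of all genes, with a median of 0.04. When either duodenal sample was left out, 4 were called.

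Gata3 encodes a GATA factor of the sphincter mesenchyme. Its level was 7.48, 8.97 and 9.16 in pyloric replicates 1, 2 and 3 and 5.02 and 5.46 in the duodenal samples. The pools did not overlap, and even the lowest pyloric pool stood well above both duodenal samples. The difference was 3.30 ± 0.39 (limma adjusted p = 0.000718), and 3.83 ± 0.26 without pyloric replicate 1.

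Nkx2-5, a homeobox factor that marks the pyloric sphincter, was at 9.31, 10.19 and 10.16 in the pylorus and 7.10 and 7.30 in the duodenum. The stomach mean of 7.39 lay beside the duodenal values, so the pyloric pools were above both neighbours, as they were for Gata3 with a stomach mean of 5.78. The difference of Nkx2-5 from duodenum was 2.68 ± 0.20 (limma adjusted p = 6.78e-06), and 2.97 ± 0.12 without replicate 1.

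Barx1 and Six2 had another profile. Barx1, a homeobox factor of stomach mesenchyme, was at 11.06, 12.08 and 12.03 in the pylorus and 8.39 and 8.58 in the duodenum, with a stomach mean of 12.47. Six2 was at 9.39, 10.30 and 10.17 in the pylorus and 6.61 and 7.10 in the duodenum, with a stomach mean of 9.81. Both therefore stepped down between pylorus and duodenum rather than between stomach and pylorus. The differences were 3.24 ± 0.26 for Barx1 (limma adjusted p = 1.13e-05) and 3.10 ± 0.23 for Six2 (6.78e-06), and 3.57 ± 0.19 and 3.38 ± 0.18 without replicate 1.

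Isl1, a LIM homeobox factor of foregut mesenchyme and of nerve cells, was at 10.45, 12.22 and 12.30 in the pylorus and 9.22 and 9.26 in the duodenum. Bmpr1b, a receptor for bone morphogenetic proteins (BMPs), was at 7.73, 9.34 and 9.25 against 6.90 and 6.97. In both genes replicate 1 stood closer to the duodenum than to the other pyloric pools. The differences were 2.42 ± 0.37 and 1.84 ± 0.34 (limma adjusted p = 0.00481 and 0.0179). They were 3.02 ± 0.13 and 2.36 without replicate 1, and both calls were lost when either duodenal sample was left out. That of Bmpr1b was also lost without pyloric replicate 2 or 3.

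Other members of this list separated pyloric replicate 1 from the other pools. Nr2f1, a nuclear receptor gene, was at 9.06, 10.83 and 10.78 in the pylorus and 9.24 and 9.36 in the duodenum. Its difference was 0.92 ± 0.39 and not called (limma adjusted p = 0.532), and 1.5 and called without replicate 1 (adjusted p = 0.000879). Nkx2-3, a homeobox factor of intestinal and splenic mesenchyme, was at 11.45, 9.87 and 10.14 in the pylorus and 11.31 and 11.25 in the duodenum. Its difference was -0.79 ± 0.32 and not called (adjusted p = 0.495), and -1.28 and called without replicate 1 (adjusted p = 0.000943). In both genes replicate 1 lay with the duodenal samples.

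**Figure D1:**
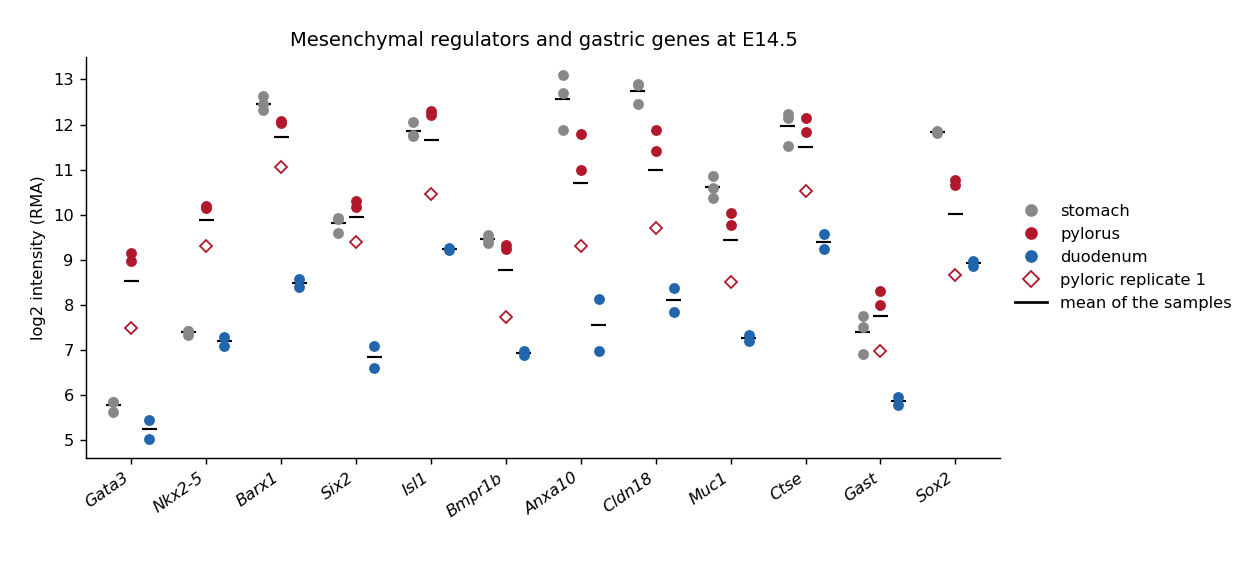
Log2 intensity (vertical axis) of 6 mesenchymal regulators, the gastric genes Anxa10, Cldn18, Muc1 and Ctse, the hormone gene Gast and Sox2 at E14.5, with 1 point for each sample of stomach, pylorus and duodenum, an open diamond for pyloric replicate 1 and a bar for the mean of the samples. The pyloric pools lie above the duodenal samples in each called gene, and replicate 1 lies lowest of the pyloric pools in all 12.

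Among genes outside the lists, other regulators differed in the same comparison. Runx1, a Runt family factor, was at 7.47, 8.53 and 8.32 in the pylorus and 6.06 and 6.38 in the duodenum, a difference of 1.89 ± 0.26 (2.21 without replicate 1). Nkx6-3, a homeobox factor of antral epithelium, was at 9.51, 10.67 and 10.50 against 8.17 and 7.76, a difference of 2.26 ± 0.30 (2.62 without replicate 1). In neither gene did the tissues overlap. The homeobox gene Mkx, which acts in tendon, was called higher too, at 1.38 ± 0.31 (1.82 without replicate 1).

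Large rises also occurred in an enzyme gene and a matrix gene. Arg1, which encodes arginase, was at 7.74, 9.59 and 9.60 in the pylorus and 6.31 and 6.30 in the duodenum, a difference of 2.67 ± 0.45 (limma adjusted p = 0.00935, and 3.29 ± 0.31 without replicate 1). Nepn, a leucine-rich matrix proteoglycan gene, was at 11.06, 12.68 and 12.72 against 9.40 and 9.70, a difference of 2.61 ± 0.39 (3.15 ± 0.26 without replicate 1). In both genes pyloric replicates 2 and 3 lay close together, and replicate 1 lay between them and the duodenum.

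Cartilage and matrix genes did not move as a group. Of 31 measured genes of extracellular matrix, fibroblasts and cartilage, 1 was called higher and 1 lower, with a median of -0.06 (4 and 1 without replicate 1, median -0.02). The higher one, Cnmd, encodes chondromodulin, an inhibitor of vessel growth in cartilage. It was at 6.49, 7.90 and 7.79 in the pylorus, at 5.27 and 5.18 in the duodenum and at a mean of 5.30 in the stomach, a difference from duodenum of 2.17 ± 0.32 (2.62 ± 0.21 without replicate 1). The lower one, the matrilin gene Matn4, differed by -0.67 ± 0.12 (-0.65 ± 0.13 without replicate 1). The cartilage collagen gene Col9a1 was not called at 1.29 ± 0.42 (adjusted p = 0.266) and was called at 1.89 without replicate 1.

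Gastric epithelial genes were higher in the pylorus in part. Of 30 measured genes of this list, 4 were called higher and 0 lower, against 0.280% and 0.566% of all genes, with a median of 0.58, and 24 of 30 differences were above 0. Pools did not overlap in 18 genes with a higher pylorus and in 2 with a lower one, where 5.93% and 18% of all genes did the same. At an unadjusted p under 0.05, 14 genes were higher and 1 lower. Without pyloric replicate 1 the list had 9 genes called higher and a median of 0.75, while the share of all genes called higher rose to 1.44%. The 4 calls rested on the other samples: 1 remained without pyloric replicate 2, and 0 without pyloric replicate 3, without the averaged duodenal sample or without duodenal replicate 3.

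The 4 called genes were Anxa10, Cldn18, Muc1 and Ctse. Cldn18, which encodes a tight junction protein of gastric epithelium, was at 9.70, 11.89 and 11.41 in the pylorus and 8.38 and 7.85 in the duodenum. Muc1, a membrane mucin, was at 8.51, 10.05 and 9.78 against 7.34 and 7.2. The pools of both genes kept apart, with replicate 1 the nearest to the duodenum.

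The difference of Cldn18 was 2.89 ± 0.58 (limma adjusted p = 0.0271) and that of Muc1 was 2.18 ± 0.37 (0.00967), and they were 3.54 ± 0.49 and 2.65 ± 0.28 without replicate 1. Anxa10, an annexin gene of gastric mucosa, was at 9.30, 11.80 and 10.99 in the pylorus and 8.14 and 6.98 in the duodenum, a difference of 3.14 ± 0.60 (3.84 ± 0.50 without replicate 1). Ctse, a gastric aspartic protease gene, differed by 2.10 ± 0.42 (2.59 ± 0.34 without replicate 1). A dimmer probe set of Ctse differed by -0.33, so the probe sets of this gene disagreed.

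Sox2, a foregut epithelial factor, was called without replicate 1 but not with all samples. It was at 8.66, 10.77 and 10.65 in the pyloric replicates and 8.86 and 8.98 in the duodenum, so replicate 1 lay below both duodenal samples. The difference was 1.11 ± 0.45 and not called (limma adjusted p = 0.490), and 1.79 ± 0.23 and called without replicate 1 (adjusted p = 0.00052). The stomach mean was 11.83. Among the stomach peptides, Gkn1 differed by 0.72 ± 0.49 and Gkn2 by 1.01 ± 0.49, and neither was called with or without replicate 1 (0.86 and 1.19 without it).

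Hormone and secretory genes moved singly. Gast, the precursor of the antral hormone gastrin, was at 6.97, 8.31 and 8.0 in the pylorus and 5.96 and 5.78 in the duodenum. The pools did not overlap, and the difference was 1.89 ± 0.31 (limma adjusted p = 0.00797; 2.29 ± 0.24 without replicate 1). Its call was lost when either duodenal sample was left out. Chga, which encodes a granule protein of endocrine and nerve cells, was the other called gene of the 21 measured in the enteroendocrine list. It was at 7.14, 7.09 and 7.14 in the pylorus and 7.95 and 8.27 in the duodenum, a difference of -0.99 ± 0.13 (-0.99 ± 0.14 without replicate 1). This list had a median of -0.26 (-0.37 without replicate 1).

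Of 17 goblet and Paneth cell genes 1 was called higher, and the median was -0.02 (2 higher and -0.23 without replicate 1). It was Agr2, a disulfide isomerase gene of mucus-secreting cells, at 10.73, 11.46 and 11.38 in the pylorus and 9.74 and 9.07 in the duodenum. The difference was 1.79 ± 0.31 (2.02 ± 0.31 without replicate 1). Agr2 is also made by gastric surface cells, and its stomach mean was 11.75. The goblet cell factor gene Spdef was not called at 0.80 ± 0.23 and was called at 1.05 ± 0.21 without replicate 1.

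**Figure D2:**
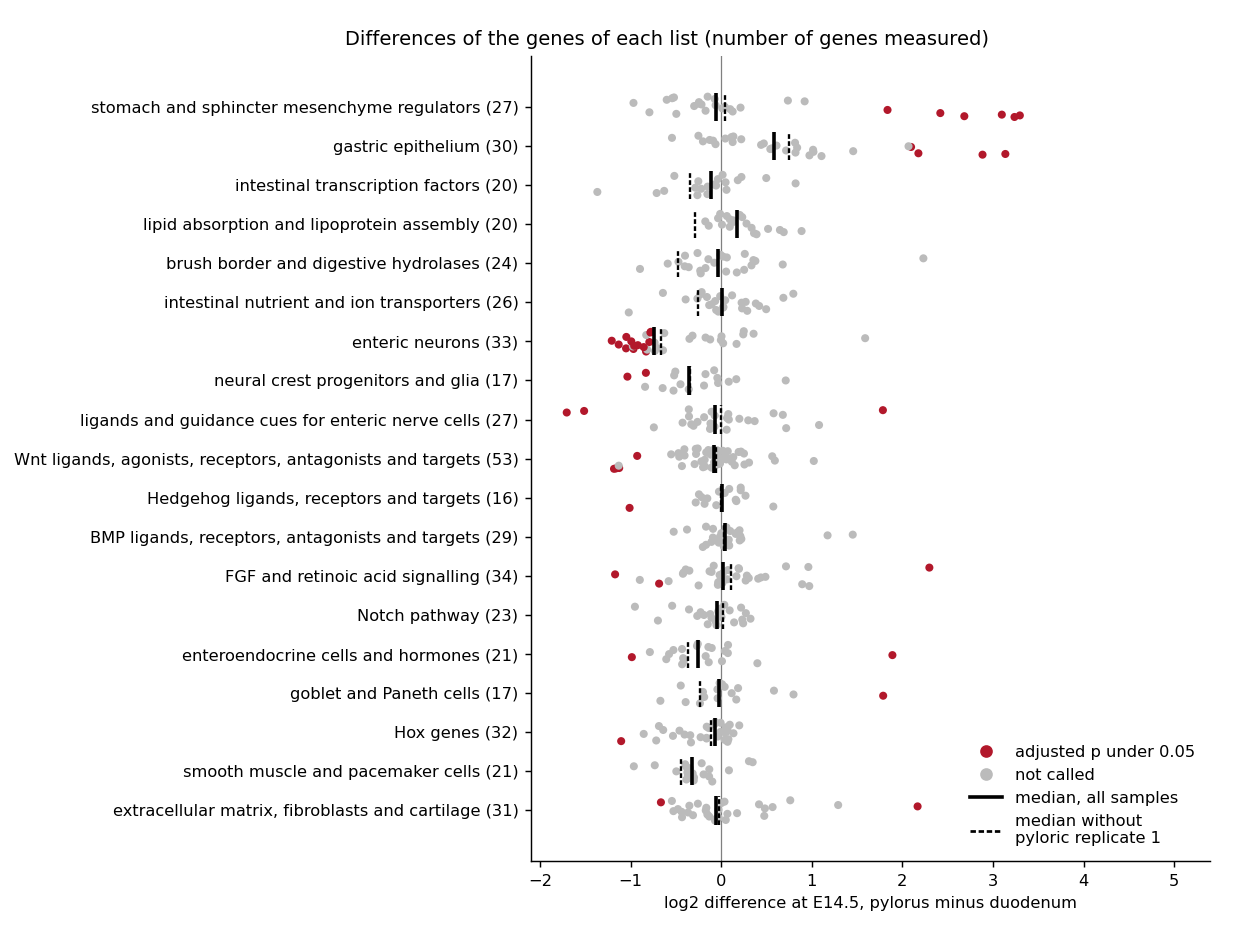
Log2 difference at E14.5 between pylorus and duodenum (horizontal axis) for each gene of 19 lists (rows, with the number of genes measured), red where limma's adjusted p was under 0.05; solid bars are medians with all samples and dashed bars medians without pyloric replicate 1. The calls of the enteric neuron row lie between -1.21 and -0.78, and the 6 of the mesenchyme row lie between 1.84 and 3.30.

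Genes of enteric neurons stood below their duodenal level in the pylorus. Of 33 measured genes, 13 were called lower and 0 higher, against 0.566% and 0.280% of all genes. The median was -0.74, 26 of 33 differences were below 0, and pools did not overlap in 23 genes with a lower pylorus, as in 18% of all genes. Without pyloric replicate 1, 11 were called lower, against 0.868% of all genes, with a median of -0.66. In bulk tissue, fewer nerve cells and less of these RNAs in each nerve cell cannot be told apart.

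The called genes came from several parts of the neuron. Tubb3, Stmn3, Kif5a and the filament genes Nefl, Nefm and Prph belong to the cytoskeleton and axonal transport, Syt1, Snap25, Synpr and Scg3 to vesicles and their release, and Vip, Slc18a3 and Chrna3 to transmission. Vip, a neuropeptide of relaxing motor neurons, was at 10.01, 9.86 and 9.81 in the pylorus and 11.14 and 11.06 in the duodenum. Slc18a3, which loads acetylcholine into vesicles, was at 5.97, 6.04 and 6.17 against 6.92 and 7.29. Neither gene overlapped between tissues, and here replicate 1 sat with the other pyloric pools.

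The difference of Vip was -1.21 ± 0.18 (limma adjusted p = 0.00464; -1.27 ± 0.20 without replicate 1) and that of Slc18a3 was -1.05 ± 0.19 (0.0150; -1.0 ± 0.21). Syt1, the calcium sensor of vesicle release, was at 8.37, 8.72 and 8.67 in the pylorus and 9.54 and 9.74 in the duodenum, a difference of -1.05 ± 0.16 (-0.94 ± 0.16 without replicate 1). Tubb3, the neuronal tubulin gene, was at 9.03, 9.29 and 9.10 against 9.77 and 10.17, a difference of -0.83 ± 0.17 (-0.78 ± 0.18). Again the pyloric pools lay together and below both duodenal samples.

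Nefm, a neurofilament gene, was at 8.45, 9.47 and 9.33 in the pylorus and 10.04 and 10.39 in the duodenum. Its difference was -1.13 ± 0.23 (limma adjusted p = 0.0320) and -0.82 ± 0.16 without replicate 1, the lowest pool. Snap25 was at 7.29, 7.50 and 7.45 in the pylorus and 8.30 and 8.47 in the duodenum, at -0.97 ± 0.16 (-0.91 without replicate 1). Synpr and Kif5a lost their calls without replicate 1, at -0.79 ± 0.20 (adjusted p = 0.0524) and -0.69 (0.0649).

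Not all neuropeptide genes lay lower. Tac1, the precursor of substance P, was at 9.29, 9.58 and 9.29 in the pylorus and 8.86 and 6.73 in the duodenum, a difference of 1.59 ± 0.39 (adjusted p = 0.0812; 1.64 without replicate 1). The duodenal samples were far apart in this gene. With each array centred on its median, 14 genes of the list were called lower and 1 higher.

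The size of the neuronal count rested on single samples. It was 12 without pyloric replicate 2, 6 without pyloric replicate 3 and 6 without the averaged duodenal sample, where 1 gene was called higher. It was 0 without duodenal replicate 3, although the median was still -0.63 there. After quantile normalization 9 genes were called lower.

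Among 17 measured genes of neural crest progenitors and glia, 2 were called lower and 0 higher, with a median of -0.36 (2 lower, 1 higher and -0.34 without replicate 1). Fabp7, a fatty acid binding gene of glia, was at 10.67, 10.73 and 10.54 in the pylorus and 11.60 and 11.76 in the duodenum, a difference of -1.04 ± 0.18 (-1.05 ± 0.20 without replicate 1). Cdh19, a cadherin gene of Schwann-like cells, differed by -0.83 ± 0.18 (-0.65 ± 0.16). At an unadjusted p under 0.05, 9 genes of this list were lower and 1 was higher. The progenitor genes Ret and Sox10 were at 9.12, 9.98 and 9.98 and at 8.77, 9.15 and 8.97 in the pylorus, and at 10.36 and 10.32 and at 9.49 and 9.49 in the duodenum, and neither was called.

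Ligands and guidance cues that nerve cells meet in the gut wall did not follow the neurons. Of 27 measured genes, 1 was called higher and 2 lower, with a median of -0.07 (3, 3 and 0.00 without replicate 1). Slitrk4, a neuronal adhesion receptor gene, was at 7.75, 7.96 and 8.10 in the pylorus and 9.59 and 9.70 in the duodenum, a difference of -1.71 ± 0.13 (limma adjusted p = 6.78e-06; -1.61 ± 0.13 without replicate 1). Thbs4, a thrombospondin gene of matrix and tendon, differed by -1.51 ± 0.22 (-1.73 ± 0.20). Tnc, a tenascin gene, was higher by 1.79 ± 0.34 (2.17 ± 0.30). The neurotrophic ligand gene Gdnf was at 8.81, 9.95 and 9.71 in the pylorus, on both sides of its duodenal values of 9.37 and 9.49.

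**Figure D3:**
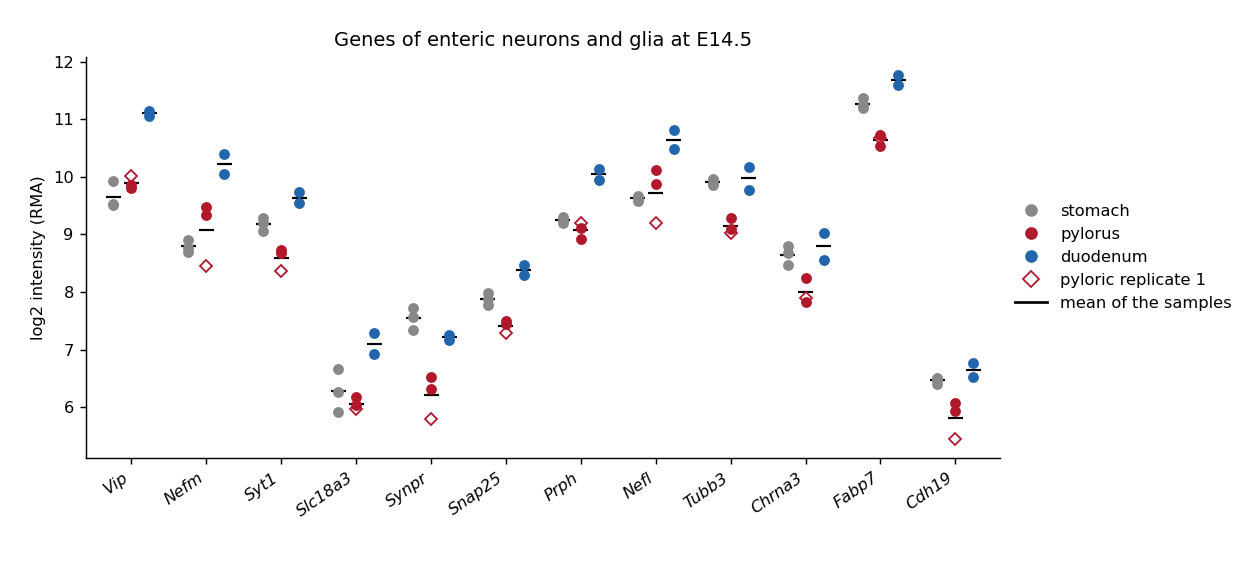
Log2 intensity (vertical axis) of 10 called neuronal genes and of the glial genes Fabp7 and Cdh19 at E14.5, with 1 point for each sample of stomach, pylorus and duodenum, an open diamond for pyloric replicate 1 and a bar for the mean of the samples. In all 12 genes the pyloric pools lie below both duodenal samples.

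In the Wnt pathway the genes called with all samples encode secreted proteins. R-spondins are secreted proteins that bind Lgr receptors and strengthen Wnt signals, and they come mostly from mesenchyme. Of 53 measured genes of the Wnt list, 4 were called lower and 0 higher, against 0.566% and 0.280% of all genes, and the median was -0.08. Without replicate 1, 4 were lower and 2 higher, against 0.868% and 1.44% of all genes, with a median of -0.06. At an unadjusted p under 0.05, 9 were lower and 4 higher. The 4 were Rspo1, Rspo2, Rspo3 and Sfrp5, so 3 agonists fell beside 1 antagonist of the Frizzled-related family. The ligand gene Wnt7b, which was not in the list, was also called lower, at -0.41 ± 0.09 (limma adjusted p = 0.0412; -0.45 ± 0.09 without replicate 1). That call was lost when any of the other 4 samples was left out.

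Rspo1 was at 7.53, 8.22 and 8.11 in the pylorus and 9.12 and 9.15 in the duodenum. Rspo3 was at 9.22, 8.97 and 9.15 against 10.27 and 10.21. Rspo2 was at 6.68, 6.74 and 6.68 against 7.98 and 7.74. In each gene the pyloric pools lay below both duodenal samples, and in Rspo1 replicate 1 was the lowest of them.

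The differences were -1.18 ± 0.24 for Rspo1, -1.16 ± 0.26 for Rspo2 and -1.13 ± 0.21 for Rspo3 (limma adjusted p = 0.0293, 0.0499 and 0.0202). Without replicate 1 they were -0.97 ± 0.23, -1.15 ± 0.29 and -1.18 ± 0.23, and Rspo2 lost its call (0.0523). Dimmer probe sets of Rspo2 and Rspo3 differed by 0.04 and -0.14. Sfrp5 was at 10.17, 9.96 and 10.13 in the pylorus, 11 and 11.03 in the duodenum and 7.27 on average in the stomach, a difference of -0.93 ± 0.18 (-0.97 ± 0.20 without replicate 1). The calls rested on single samples: 1 Wnt gene was called without pyloric replicate 2, and 0 without pyloric replicate 3 or either duodenal sample.

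Receptors and targets of the pathway showed no calls with all samples. Without replicate 1 the receptor genes Fzd4 and Fzd5 were called higher, at 1.25 and 0.84. The same step brought in Rnf43, which encodes a ligase that removes Frizzled receptors and is a Wnt target. Rnf43 was at 7.65, 6.34 and 6.47 in the pylorus and 8.12 and 7.79 in the duodenum, a difference of -1.13 ± 0.31 (adjusted p = 0.144) and -1.55 ± 0.23 without replicate 1 (0.00131).

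In the Hedgehog pathway, 1 of 16 measured genes was called lower and 0 higher, and the median was 0.01 (0 called and 0.00 without replicate 1). It was Shh, the ligand that gut epithelium sends to the mesenchyme, at 11.53, 11.94 and 11.87 in the pylorus and 12.82 and 12.77 in the duodenum. The difference was -1.01 ± 0.22 (limma adjusted p = 0.0389), and -0.89 ± 0.23 without replicate 1 (0.0581). The call was lost without each of the 5 samples in turn, although the pools did not overlap. Ihh, the other epithelial ligand, was at 0.58 ± 0.20 and not called (0.67 ± 0.21 without replicate 1).

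The receptor and target genes downstream did not move with Shh. The receptor and target gene Ptch1 was at 12.69, 12.59 and 12.73 in the pylorus and 12.68 and 12.34 in the duodenum. The target gene Gli1 was at 8.96, 8.19 and 8.26 against 8.52 and 7.99. The tissues overlapped in Gli1, and in Ptch1 they overlapped through the averaged duodenal sample.

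The receptor gene Bmpr1b, described above with the mesenchymal regulators, was called higher at 1.84 and was not counted in the BMP list. Of the 29 measured genes of that list limma called 0 in either direction, with 2 higher and 2 lower at an unadjusted p under 0.05 and a median of 0.04. Within the list the antagonist genes Fst and Grem1 had the largest differences. Fst was at 7.22, 9.12 and 8.88 in the pylorus and 6.95 and 6.96 in the duodenum, a difference of 1.45 ± 0.42 (adjusted p = 0.178) and 2.05 ± 0.27 without replicate 1 (0.000606). Grem1 was at 9.52, 10.41 and 10.81 against 9.06 and 9.09, a difference of 1.17 ± 0.36 (0.225) and 1.54 ± 0.33 without replicate 1 (0.0195). They were the 2 genes of the list called without that pool, where the median was 0.03.

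In FGF and retinoic acid signalling, 1 of 34 measured genes was called higher and 2 lower, with a median of 0.02 (5, 4 and 0.11 without replicate 1). Crabp1, which binds retinoic acid inside the cell, was at 8.30, 9.74 and 9.48 in the pylorus and 6.80 and 6.95 in the duodenum, a difference of 2.30 ± 0.35 (2.74 ± 0.28 without replicate 1). Aldh1a1, which makes retinoic acid, ran the other way, at 10.96, 10.43 and 10.33 against 11.73 and 11.76, a difference of -1.17 ± 0.22 (-1.37 ± 0.20). Fgf13, an intracellular FGF homologue of neurons, differed by -0.69 ± 0.15 (-0.52 ± 0.12). Outside the list, Rbp4, which carries retinol, was called lower at -1.19 ± 0.26 and lost its call without replicate 1 (-1.04 ± 0.27, adjusted p = 0.0668). The mesenchymal ligand gene Fgf10 was not called at 0.89 ± 0.24 (0.139) and was called at 1.23 without replicate 1.

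Of 23 Notch genes limma called 0, with 4 lower and 0 higher at an unadjusted p under 0.05 and a median of -0.05 (1 higher, 1 lower and 0.02 without replicate 1). The secretory cell factor gene Atoh1 was at 7.25, 6.03 and 6.21 in the pylorus and 7.75 and 7.15 in the duodenum. Its difference of -0.95 ± 0.35 was not called (0.386), and that of -1.33 ± 0.31 without replicate 1 was called (0.0322).

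Of 32 measured Hox genes 1 was called lower, with a median of -0.07 (1 and -0.11 without replicate 1). Hoxa4 was at 8.84, 8.65 and 8.67 in the pylorus and 9.92 and 9.73 in the duodenum, a difference of -1.11 ± 0.24 (limma adjusted p = 0.0417; -1.17 ± 0.26 without replicate 1). Its call was lost after quantile normalization and without each of the other 4 samples in turn. Hoxb5 was at -0.86 ± 0.24 and not called (-0.80 ± 0.26 without replicate 1).

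Smooth muscle genes did not pass the test. Of 21 measured genes of smooth muscle and pacemaker cells limma called 0, with 6 lower and 0 higher at an unadjusted p under 0.05. The median was -0.32 (0 called and -0.44 without replicate 1), 18 of 21 differences were below 0, and pools did not overlap in 12 genes with a lower pylorus, where 18% of all genes did the same. The contractile actin gene Acta2 was at 14.17, 14.20 and 14.18 in the pylorus and 14.28 and 14.29 in the duodenum, a difference of -0.10 ± 0.13 (-0.09 ± 0.14 without replicate 1). The largest difference was that of Ppp1r14a, a phosphatase inhibitor gene, at -0.97 ± 0.24 (adjusted p = 0.0890; -1.02 ± 0.26 without replicate 1).

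With all samples, limma called 0 genes of the intestinal lists at this age, which does not show that their levels were equal. Cdx2, the factor that sets intestinal identity, was at 10.17, 9.47 and 9.81 in the pylorus and 9.74 and 10.20 in the duodenum, with a stomach mean of 6.09. Its difference was -0.15 ± 0.27 (limma adjusted p = 0.992; -0.33 ± 0.28 without replicate 1), and the pools overlapped. Pdx1, a factor of antrum, duodenum and pancreas, was at -0.08 ± 0.16 (-0.03 ± 0.18). Limma called 0 of 20 intestinal transcription factors (2 higher and 3 lower at an unadjusted p under 0.05), 0 of 20 lipid genes (0 and 0), 0 of 24 brush border and hydrolase genes (1 and 2) and 0 of 26 transporters (0 and 2).

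Both tissues were divided within themselves in these lists. The mean level of lipid absorption genes was 10.49, 8.35 and 9.08 in the pyloric replicates and 9.71 and 8.44 in the duodenal samples. The lactase gene Lct was at 10.05, 5.46 and 8.0 in the pylorus and 8.94 and 5.38 in the duodenum. The fatty acid binding gene Fabp1 was at 13.71, 9.55 and 11.89 against 13.20 and 10.04. Thus pyloric replicate 1 exceeded both duodenal samples, pyloric replicate 2 was near duodenal replicate 3, and the order of the pools did not follow the tissue.

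The medians of these lists accordingly moved with replicate 1. The lipid median was 0.17 with all samples and -0.29 without it, the brush border median -0.04 and -0.48, the transporter median 0.01 and -0.26, and the transcription factor median -0.11 and -0.34. Without it 2 transcription factors were called lower and 1 higher, 1 brush border gene was lower, and 0 lipid or transporter genes were called. The lower factors were Prdm1 and Isx. Prdm1, a repressor of the adult enterocyte program, was at 10.12, 8.42 and 9.02 in the pylorus and 10.51 and 10.60 in the duodenum, a difference of -1.37 ± 0.40 (0.178) and -1.84 ± 0.32 without replicate 1 (0.00561). The higher one was Klf4, a factor of differentiated epithelium, at 0.82 ± 0.29 (0.36) and 1.21 ± 0.21 (0.00545).

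Myo7b, a brush border myosin gene, was at 9.98, 8.32 and 8.68 in the pylorus and 10.11 and 9.67 in the duodenum, a difference of -0.90 ± 0.36 that was called at -1.39 ± 0.24 without replicate 1. Mme, which encodes a brush border peptidase, went the other way without a call, at 8.02, 8.45 and 8.73 against 7.18 and 5.15, a difference of 2.23 ± 0.57 (adjusted p = 0.104; 2.42 ± 0.62 without replicate 1). The general epithelial genes did not move with these lists: their mean lay at 11.61, 11.64 and 11.65 in the pyloric pools and 11.57 and 11.47 in the duodenal samples, and Cdh1 differed by -0.02 ± 0.14 (0.02 ± 0.16 without replicate 1).

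**Figure D4:**
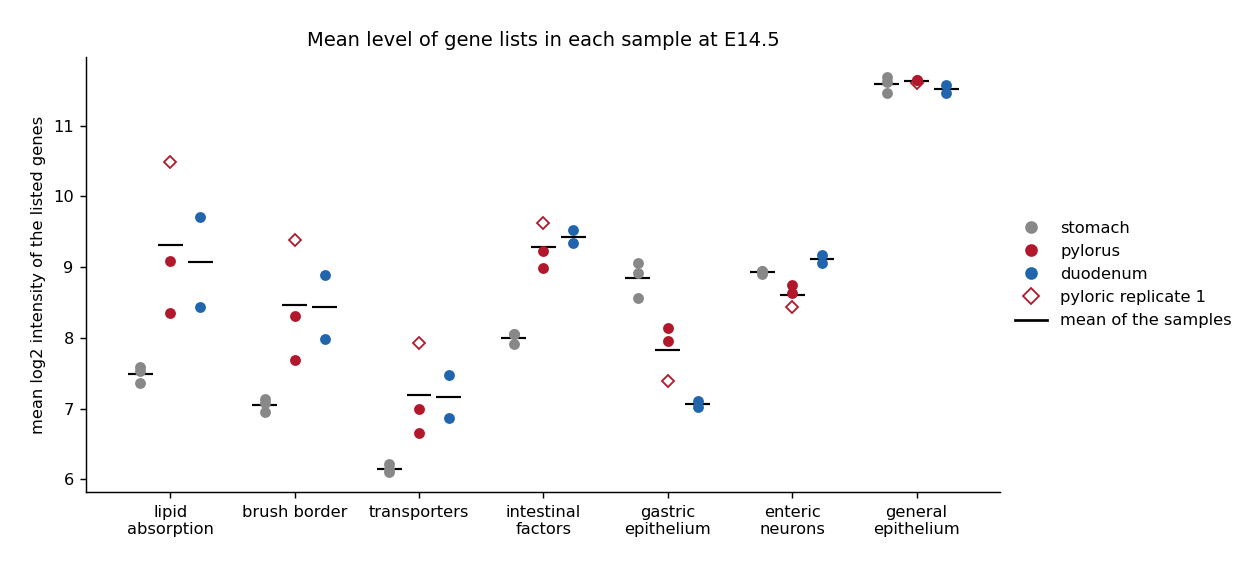
Mean log2 intensity (vertical axis) of the measured genes of 7 lists in each sample of stomach, pylorus and duodenum at E14.5, with an open diamond for pyloric replicate 1 and a bar for the mean of the samples. The absorptive lists spread widely within pylorus and within duodenum, while the general epithelial list stays between 11.47 and 11.69 in all samples.

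Markers of neighbouring organs were examined because the segments were cut by hand. Of 13 measured pancreatic genes 1 was called lower and 0 higher, the median was -0.43 (2 lower and -0.66 without replicate 1), and 12 of 13 differences were below 0. The called gene was Ptf1a, a pancreatic and neural factor gene, at 5.55, 5.56 and 5.85 in the pylorus and 6.82 and 7.05 in the duodenum, a difference of -1.28 ± 0.19 (-1.23 ± 0.21 without replicate 1). The exocrine gene Cpa1 was at 9.93, 9.85 and 9.89 against 11.26 and 11.18, and was not called at -1.33 ± 0.78. The mean of the list was 7.30, 7.03 and 7.06 in the pylorus and 7.71 and 7.72 in the duodenum. The part of pancreatic tissue in the lower genes was not tested.

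Of 13 liver genes the acute phase gene Crp alone was called lower, at 6.76, 6.45 and 6.26 in the pylorus and 8.15 and 8.37 in the duodenum. Its difference was -1.77 ± 0.20 (limma adjusted p = 0.000639; -1.91 ± 0.21 without replicate 1). The list's mean did not go that way, at 8.26, 8.73 and 8.43 against 8.34 and 8.38, with a median difference of 0.34 (0.51 without replicate 1). The mesothelial list had a median of -0.22, the erythroid list 0.32, the leukocyte list 0.38, the endothelial list 0.29 and the squamous list 0.36, with 0 genes called by limma in each and 2, 0, 7, 0 and 0 genes at an unadjusted p under 0.05. Without replicate 1 they were -0.12, 0.69, 0.39, 0.10 and 0.50, with 1 mesothelial and 2 leukocyte genes called higher. The 7 leukocyte genes at an unadjusted limma p under 0.05 were all higher in the pylorus, and 14 of 15 differences were above 0. Pools did not overlap in 7 leukocyte genes with a higher pylorus, where 5.93% of all genes did the same. The mean level of the 15 leukocyte genes was 8.36, 8.51 and 8.47 in the pylorus and 8.09 and 8.05 in the duodenum. The part of leukocytes in other differences was not tested.

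Genes of cell division and of the stress response were examined as well. Cell division genes had 0 of 15 called and a median of -0.10 (0 and -0.02 without replicate 1). Immediate-early and heat-shock genes had 0 of 16 called and a median of -0.07 (0 and 0.14 without replicate 1). In both lists 0 genes reached an unadjusted p under 0.05.

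Among the largest falls were also genes of no list. Cbln2, which encodes a secreted organiser of synapses, was at 6.60, 6.95 and 6.98 in the pylorus and 8.58 and 9.02 in the duodenum, a difference of -1.96 ± 0.17 (limma adjusted p = 3.41e-05; -1.84 ± 0.18 without replicate 1). Mreg, a gene of pigment granule transport, was at 8.42, 8.35 and 8.53 against 9.98 and 10.26, a difference of -1.69 ± 0.27 (-1.68 ± 0.30). Its stomach mean was 10.17, so the pylorus lay below both neighbours. Tnr, a tenascin gene of nerve tissue, was at -1.21 ± 0.14 (-1.10 ± 0.14).

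Slc2a3, a glucose transporter gene of neurons and early embryos, was at 9.93, 10.69 and 10.55 in the pylorus and 11.53 and 11.64 in the duodenum, a difference of -1.20 ± 0.20 (-0.97 ± 0.16 without replicate 1). Blnk, a signalling adaptor gene, was at -1.32 ± 0.27 (-1.62 ± 0.24), the collagen gene Col13a1 at -1.22 ± 0.17 (-1.42 ± 0.14), the zinc finger gene Zfp804a at -1.22 ± 0.21 (-1.08 ± 0.21) and the neuropeptide precursor Pnoc at -1.20 ± 0.22 (-1.28 ± 0.24). Efemp1, a fibulin gene, was at -1.35 ± 0.29 and lost its call without replicate 1 (-1.13 ± 0.29, adjusted p = 0.0573).

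In the 103 genes called lower, replicate 1 was the lowest pyloric pool in 62 and the highest in 26. The stomach mean was above the pyloric mean in 65 of them and above the duodenal mean in 3. In the 51 genes called higher, the stomach mean was above the duodenal mean in all 51 and above the pyloric mean in 30.

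Leaving out pyloric replicate 1 added 211 higher and 67 lower genes to those called with all samples. The largest additions among the higher genes were Mal, Bpifb1, Ugt8a, Gcnt3, Kctd14, S100a9, S100a8 and Col4a4. Mal, a lipid raft protein gene of polarised epithelia, was at 6.68, 9.15 and 8.38 in the pylorus and 5.56 and 5.29 in the duodenum, a difference of 2.64 ± 0.72 (adjusted p = 0.138) and 3.34 ± 0.67 without replicate 1 (0.0134). Ugt8a was at 7.97, 10.24 and 10.08 against 7.60 and 7.51, Gcnt3, which branches mucin sugars, at 8.74, 10.53 and 10.42 against 7.94 and 8.05, and Col4a4 at 5.63, 7.29 and 7.19 against 5.12 and 5.02. In each of them replicate 1 lay much nearer to the duodenum than to the other pyloric pools.

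Bpifb1, a secreted defence protein gene of the stomach, was at 6.50, 9.31 and 8.74 in the pylorus and 6.89 and 5.34 in the duodenum. The calprotectin genes S100a8 and S100a9, of leukocytes and of stratified epithelium, were at 8.77, 10.82 and 10.51 against 8.46 and 8.16 and at 7.75, 9.97 and 9.67 against 7.55 and 7.35. Without replicate 1 these differences were 2.91 ± 0.68, 2.36 ± 0.53 and 2.37 ± 0.53. With it none of the 3 was called.

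The largest additions among the lower genes were Naip5, Prdm1, Tm4sf4, Folr1, Rnf43, Kcne3, Fmo5 and Aldh1b1. Folr1, a folate receptor gene, was at 10.50, 7.62 and 8.26 in the pylorus and 9.62 and 9.49 in the duodenum, and Aldh1b1 at 11.87, 9.14 and 9.97 against 11.43 and 10.47. In both, replicate 1 was above the duodenal samples and the other pyloric pools were below them. The differences went from -0.76 ± 0.61 and -0.62 ± 0.54 to -1.62 ± 0.40 and -1.40 ± 0.33 (limma adjusted p = 0.0466 and 0.0383) without replicate 1. Naip5, an innate immune sensor gene, went from -1.54 ± 0.55 to -2.24 ± 0.41 and the membrane protein gene Tm4sf4 from -1.33 ± 0.40 to -1.80 ± 0.32.

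The same tissues at E16.5, from other pools, give the later state of the genes called at E14.5. At that age 6731 of 18193 genes were called (37.0%), 3564 higher (19.6%) and 3167 lower (17.4%). The pylorus and duodenum (n = 3 each) of E16.5 entered the same fit, which shares its estimate of spread. Centring each array on its median moved the median difference of all genes at E16.5 from -0.03 to -0.17 and the share of calls that were higher from 52.9% to 31.0%, so directions of small differences at E16.5 depend on the scaling.

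Of the 51 genes called higher at E14.5, 44 were called higher at E16.5, 3 lower and 4 neither. The number higher was 43 after quantile normalization, 44 with centred arrays, and 39 to 43 when each E16.5 sample was left out in turn. The 3 lower ones were Ddx58, AU015836 and Epha1. Of the 262 genes called higher without replicate 1, 196 were called higher at E16.5, 6 lower and 60 neither.

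Of the 103 genes called lower at E14.5, 73 were not called at E16.5, 20 were called higher and 10 lower. With centred arrays 16 were called higher and 22 lower, and after quantile normalization 19 and 15. Their median difference was -0.89 at E14.5 and 0.07 at E16.5. Of the 158 genes called lower without replicate 1, 43 were lower at E16.5, 22 higher and 93 neither.

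The change of the difference between the ages was tested in the same fit as an interaction, with a positive change meaning a shift towards higher pylorus. Of all genes 3561 were called (19.6%), 2286 with a positive change (12.6%) and 1275 with a negative one (7.01%). The count was 2979 without pyloric replicate 1 of E14.5 and 1673 without duodenal replicate 3 of E14.5. Of the genes called lower at E14.5, 81 of 103 were called for a change, and of those called higher 16 of 51. These 154 genes were chosen on the E14.5 values that enter the change, so these counts describe them and test nothing further.

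Of the 27 mesenchymal regulators, 16 were called higher and 4 lower at E16.5, where 19.6% and 17.4% of all genes were. The median was 0.85. The change was called positive for 6 and negative for 3, where 12.6% and 7.01% of all genes were. The difference of Gata3 went from 3.30 at E14.5 to 1.76 ± 0.35 at E16.5 (change -1.54 ± 0.52, limma adjusted p = 0.0496) and that of Nkx2-5 from 2.68 to 1.46 ± 0.18 (change -1.22 ± 0.27, adjusted p = 0.00617). Those of Barx1 and Six2 were 3.55 ± 0.23 and 2.36 ± 0.21 at E16.5, and their changes of 0.31 ± 0.35 and -0.74 ± 0.31 were not called. Cnmd was at 0.60 ± 0.29 at E16.5 and not called, with a change of -1.57 ± 0.43 (0.0188). All these changes include pyloric replicate 1 of E14.5. Without it the E14.5 differences of Gata3 and Nkx2-5 were larger, at 3.83 and 2.97.

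Of 30 gastric genes the change was called positive for 14 and negative for 2, where 12.6% and 7.01% of all genes were, and it was not called for 14. The difference of Muc1 went from 2.18 to 4.0 ± 0.33 (change 1.82 ± 0.50, limma adjusted p = 0.0184) and that of Ctse from 2.10 to 4.13 ± 0.37 (2.04 ± 0.56, adjusted p = 0.0187). Sox2 was at 4.44 ± 0.40 at E16.5 (change 3.34 ± 0.60, adjusted p = 0.00194). Without pyloric replicate 1 of E14.5, which these changes include, the E14.5 differences of Muc1, Ctse and Sox2 were larger, at 2.65, 2.59 and 1.79. The changes of Cldn18 (2.23 ± 0.77) and Anxa10 (1.69 ± 0.81) were not called. At E16.5, 23 of 30 gastric genes were called higher, where 19.6% of all genes were.

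Limma called 0 of the 33 genes of enteric neurons lower in the pylorus at E16.5. Of 33 neuronal genes 15 were called higher, where 19.6% of all genes were, with a median of 0.34 (13 and 1 after quantile normalization, 12 and 1 with centred arrays, where the median was 0.19). The change was called positive for 21 of 33 genes, where 12.6% of all genes were, and negative for 0. The mean level of the list at E14.5 was 8.44, 8.75 and 8.63 in the pylorus and 9.06 and 9.17 in the duodenum. At E16.5 it was 8.44, 8.23 and 8.27 in the pylorus and 7.84, 7.91 and 7.89 in the duodenum. The mean level thus did not rise in the pylorus, and it fell further in the duodenum. Nefm went from -1.13 to 1.07 ± 0.21 (change 2.20 ± 0.31), Tubb3 from -0.83 to 0.72 ± 0.15 (1.55 ± 0.22) and Syt1 from -1.05 to 0.37 ± 0.14 (1.42 ± 0.21). Vip went from -1.21 to -0.24 ± 0.16 and was not called at E16.5.

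Other groups were higher in the pylorus of E16.5 as well. Of 15 cell division genes 15 were called higher, with a median of 0.76. Of 31 matrix genes 15 were higher and 1 lower, with a median of 0.58. Among all genes 19.6% were called higher and 17.4% lower. Vim was higher by 1.11 ± 0.17. Duodenal replicate 1 of E16.5 stood apart, with a mean of immediate-early and heat-shock genes of 11.42 against 9.22 and 9.41 in the other duodenal pools, and with an array weight of 0.264. Without it 14 neuronal genes were called higher and 1 lower, with a median of 0.42. The part of these groups and of this pool in the neuronal shift was not tested further.

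Of the ligands, Shh showed the widest swing among the genes named here with a call at E14.5. Its difference was -1.01 at E14.5 and 2.25 ± 0.19 at E16.5, a change of 3.26 ± 0.29 (limma adjusted p = 6.42e-05). The pyloric mean was 11.89 at E16.5, near its earlier levels, and the duodenal mean was 9.64, below them. Rspo1 went from -1.18 to 0.68 ± 0.21 (change 1.86 ± 0.32), Rspo2 to 0.29 ± 0.23 (1.45 ± 0.35) and Rspo3 to -0.26 ± 0.19 (0.87 ± 0.28). The mean levels of Rspo3 at E16.5 were 7.50 and 7.76.

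**Figure D5:**
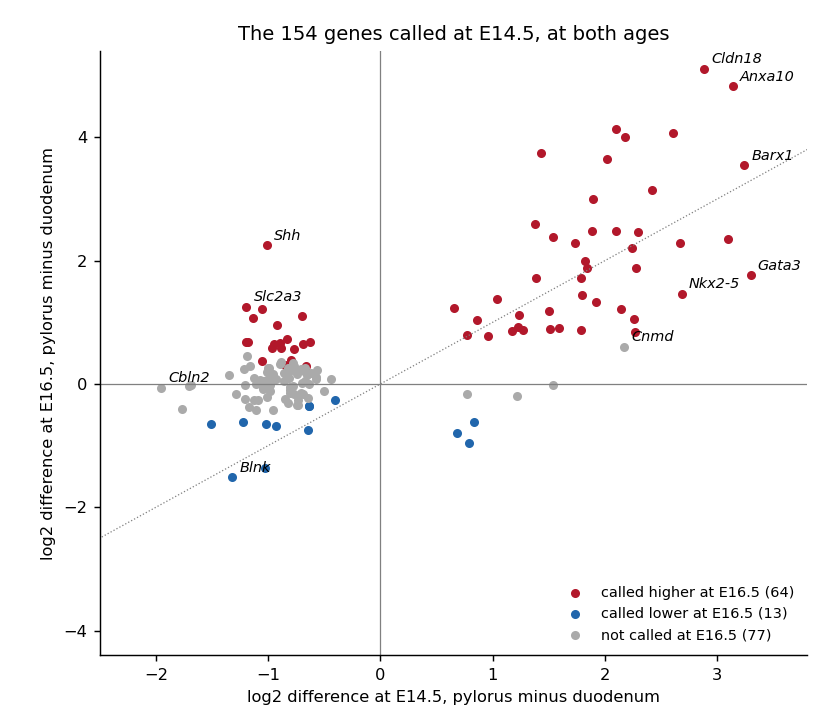
Log2 difference between pylorus and duodenum at E14.5 (horizontal axis) and at E16.5 (vertical axis) for the 154 genes called at E14.5, coloured by their call at E16.5; the dotted line marks equal differences. Most of the 51 higher genes lie above 0 at E16.5, where 44 were called higher, and the 103 lower genes gather near a median of 0.07.

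The 5 largest called changes with age in each direction, passing over clone and predicted-gene names, were found in genes not called at E14.5. Some of their differences at E14.5 were sizeable, such as 1.01 for Gkn2 and 0.80 for Abcc2. Sptssb, Sult1c2, Gkn1, Gkn2 and Plet1 had the largest positive ones. Sult1c2, a sulfotransferase gene, was at 4.84, 4.84 and 5.01 in the pylorus and 4.86 and 4.99 in the duodenum at E14.5, and its means were 10.50 and 5.73 at E16.5. The stomach peptide genes Gkn1 and Gkn2 reached E16.5 differences of 4.60 ± 0.44 and 4.76 ± 0.43.

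The largest negative ones were Meltf, Naaladl1, Abcc2, Abcb11 and Bst1. Naaladl1, a peptidase gene of absorptive cells, was at 7.16, 6.50 and 6.68 in the pylorus and 6.88 and 6.51 in the duodenum at E14.5. Its means at E16.5 were 7.62 and 11.44, a change of -3.91 ± 0.26 (limma adjusted p = 3.71e-06). Abcc2, an export pump gene, was at 7.96, 5.05 and 6.14 in the pylorus and 6.04 and 5.14 in the duodenum at E14.5 and at means of 7.85 and 10.94 at E16.5.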

How the data were processed

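Per the labels, RNA from 3 pools of each tissue and age was hybridised to Affymetrix arrays. Whether duodenal arrays 1 and 2 of E14.5 hold separate pools is uncertain, since they lay closer together than the arrays of any other pair, and they were averaged. The deposited values are log2 intensities. Per the submitters' processing notes the authors made them with RMA and GCOS, of unstated version. RMA subtracts background, normalizes arrays to each other and summarises the probes of a set, so values of different probe sets cannot be ranked as amounts. The array medians lay between 6.75 and 6.92.

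Of 45101 probe sets, 34945 with exactly 1 gene symbol in the platform annotation were kept, 932 had several and 9160 none. Where a gene had several, the one of highest mean intensity was used, which gave 18193 genes. Linear models were fitted with limma 3.58.1 in R 4.3.3 to all 6 groups, 17 samples with 11 residual degrees of freedom, and p-values were adjusted by the Benjamini-Hochberg method over all genes. The script was tested on simulated data.

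The comparison, the gene lists and the rule for named genes were chosen with earlier results of these data known. The rule took the 10 largest called rises and 20 largest falls among genes whose samples did not overlap, passing over clone and predicted-gene names, up to 5 called members of each list or its 2 largest, the 8 largest calls gained in each direction without pyloric replicate 1, 12 markers and the 5 largest changes with age in each direction. Named outside it, after their values were seen, were Wnt7b, Runx1, Nkx6-3, Mkx, Greb1, Cadps, Gm16551, Nr2f1, Nkx2-3, Snap25, Prph, Nefl, Stmn3, Chrna3, Scg3, Kif5a, Ret, Sox10, Gdnf, Ptch1, Gli1, Fzd4, Fzd5, Fgf10, Lct, Fabp1, Isx, Tac1, Bmpr1b, Cpa1, Col9a1, Ddx58, AU015836 and Epha1. Alternatives covered the scaling, the choice of probe set, the samples fitted, array weights and each sample left out.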

Additional observations from a re-analysis of the deposited data

Results flagged for a closer look

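The difference between pylorus and duodenum was not the same at E14.5 and E16.5 for many genes, as limma's interaction test over all 18193 genes showed, with 3561 genes called at an adjusted p under 0.05. A change is the log2 difference at E16.5 minus that at E14.5. Among the genes described above that were called lower in the E14.5 pylorus, the change was 1.89 for Cbln2, 1.37 for Crp, 1.68 for Slitrk4, 1.68 for Mreg, 1.49 for Efemp1, 1.11 for Ptf1a, 1.47 for Zfp804a, 1.19 for Tnr, 1.88 for Pnoc, 2.45 for Slc2a3, 1.64 for Rbp4 and 0.95 for Matn4.

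The flagged genes of nerve and glial cells shifted towards the pylorus, by 0.97 for Vip, 2.20 for Nefm, 1.42 for Syt1, 0.96 for Slc18a3, 1.25 for Synpr, 1.55 for Tubb3, 1.08 for Fabp7, 0.98 for Cdh19 and 1.34 for Fgf13. Chga, of endocrine and nerve cells, shifted by 0.87. The secreted signals shifted by 1.86 for Rspo1, 1.45 for Rspo2, 0.87 for Rspo3, 1.01 for Sfrp5 and 3.26 for Shh. All these genes, like those of the paragraph before, were called lower at E14.5. That difference enters the change, so their shared sign describes them and tests nothing further.

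Gastric and other epithelial genes shifted by 1.82 for Muc1, 2.04 for Ctse, 3.34 for Sox2, 3.88 for Gkn1, 3.75 for Gkn2, 3.09 for Mal, 3.21 for Bpifb1, 2.33 for Ugt8a, 0.96 for Spdef, 4.81 for Sptssb, 4.79 for Sult1c2 and 3.53 for Plet1. The change was 1.2 for Hoxb5, 1.14 for Ppp1r14a and 1.28 for the mesenchymal filament gene Vim.

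Shifts towards the duodenum were found for the mesenchymal genes Gata3 (-1.54), Nkx2-5 (-1.22) and Cnmd (-1.57). These mesenchymal genes were called higher at E14.5, so the same limit holds for their sign. Such shifts were also found for the absorptive genes Apoc2 (-2.44), Mme (-3.64) and Naaladl1 (-3.91) and for the export pump gene Abcc2 (-3.89). Abcb11 (-3.67), Meltf (-4.27) and Bst1 (-3.67) shifted the same way.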

How the results depend on the processing

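The number of called genes depended on the samples and the model, and the cause was not tested. The 154 calls (51 higher, 103 lower) became 310 (112 and 198) with the 18 arrays as separate samples, 0 (0 and 0) when only pylorus and duodenum of E14.5 were fitted, 101 with 17 higher when only the E14.5 samples were fitted, and 1278 (642 and 636) with array weights, where pyloric replicate 1 had a weight of 0.214. With each sample left out in turn the calls ranged from 14 (without duodenal replicate 3) to 420 (without pyloric replicate 1), those higher from 6 to 262 and those lower from 8 to 158. The count of changes with age ranged from 1673 (without duodenal replicate 3 of E14.5) to 4386, and that at E16.5 from 5203 to 7366. Counts stayed within 1.5 times of 154 for the mean of all probe sets (141), quantile normalization (134), centred arrays (169), dim genes left out (137) and an intensity trend (146). Some E14.5 differences that were not called changed sign. With each sample left out in turn, Cdx2 ranged from -0.383 to 0.077, Pdx1 from -0.21 to 0.06, Cdh1 from -0.183 to 0.147, Vim from -0.31 to 0.025, Sult1c2 from -0.093 to 0.032, Meltf from -0.188 to 0.382, Naaladl1 from -0.105 to 0.27 and Abcb11 from -0.068 to 0.222. With array weights Cdh1 was at 0.01, Meltf at -0.134, Naaladl1 at -0.084 and Abcb11 at -0.038. With the mean of all probe sets Pdx1 was at 0.027 and Acta2 at 0.008. With quantile normalization Cdh1 was at 0.033, and with centred arrays Cdh1 was at 0.03 and Sult1c2 at 0.018.

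Replicates of the same number did not pair across the tissues: their deviations correlated at 0.311, -0.436 and 0.146. With the replicate block 168 genes were called, 75 higher and 93 lower, the count was 6805 at E16.5 and 3687 for the change with age, and Sult1c2 was at 0.008.

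Leaving out E16.5 samples and counting the lists under every alternative were chosen after seeing the data. With 3 pools against 2, differences smaller than the spread between pools were not detectable.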
